A study of Mus musculus with 24 samples.

Results

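The brakes and accelerators of the G1 phase of the cell cycle were followed in mouse lacrimal gland (LG) and in spheres grown from LG stem cells (LGSCs). The genes were chosen by name and were 5 inhibitors of cyclin-dependent kinases (Cdkn1a, Cdkn1b, Cdkn2a, Cdkn2b and Cdkn2c), the 3 D-type cyclins (Ccnd1, Ccnd2 and Ccnd3), and Trp53 and Mdm2. All 10 had an Ensembl identifier among the 63862 features listed for each library. The question was which of them moved as sphere growth ended over the culture days.

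D-type cyclins join CDK4 or CDK6 in response to growth factors, and the pair phosphorylates the retinoblastoma protein, which frees E2F factors to switch on genes of DNA replication. Inhibitors of the INK4 family (p16Ink4a from Cdkn2a, and the products of Cdkn2b and Cdkn2c) bind those kinases. Cdkn2a also gives rise to p19Arf, which is not an INK4 protein. The proteins p21 (Cdkn1a) and p27 (Cdkn1b) of the CIP/KIP family bind cyclin-CDK complexes more broadly. The p53 protein, made from Trp53, turns on Cdkn1a after DNA damage and other stress, and also Mdm2, whose product marks p53 for destruction. Epithelial cells put into culture are known to build up INK4 inhibitors with time and passage.

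RNA from C57BL/6 mice was compared. The LGSC spheres came from LG of 6 to 8 week-old mice, were at passage 2, and had grown in Matrigel with EGF, FGF10, Wnt3A and the ROCK inhibitor Y-27632 for 5 days (2 libraries), 7 days, 10 days or 14 days (3 libraries each). Tissue was untreated LG of adults and of embryos, the latter at E17.5 and E19.5 (E, embryonic day), with 3 libraries each. Whole glands hold stroma, vessels and leukocytes beside epithelium. A single library of day 7 spheres at passage 10 used a different list of genes and was read by value alone. The labels do not say whether same-group libraries came from separate animals or cultures, so p-values measure the spread between these libraries, which may be technical.

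Values were FPKM (fragments scaled to exon length and to depth), and tests ran on log2(FPKM + 1), a scale that understates the change of low genes. Reads recovered from the steps of the values numbered 6434281 to 9257025 in the 20 passage 2 and tissue libraries. In adult LG the 10 most abundant genes took 31.3% to 60.4% of the reads, against at most 8.1% elsewhere among the 20, and the deposited scale of the first and second adult libraries was set 2.667 and 2.567 times below their reads. With each library scaled instead to the same FPKM sum, the median of all genes in the comparisons with adult LG moved from between -0.03 and 0.09 to between 1.06 and 1.23, and calls in the E17.5 comparison went from 53.8% to 93.1% higher. Mesenchymal markers (7 genes such as Col1a1 and Dcn) summed to 0.263 to 1.41 FPKM in LGSC spheres, 164 to 323 in adult LG and 4705 to 5680 in embryonic LG. Endothelial markers summed to at most 0.255 FPKM in spheres and at least 43.4 in tissue, and leukocyte markers to at most 2.75 in spheres and at least 5.67 in tissue.

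Several genes that epithelial or dividing cells use were listed at 0 in all 20 libraries, among them Epcam, Krt8, Gapdh and Mki67, while Cdh1 and Krt18 were above 0. The acinar markers Aqp5, Ltf and Lpo summed to 3.27 to 8.13 FPKM in adult LG, to at most 3.21 in spheres, and were at 0 at E17.5. Basal and myoepithelial markers (Krt14, Krt5, Trp63 and Acta2) summed to 13.7 to 184.9 FPKM in spheres at passage 2. They summed to 105.7 to 524.8 FPKM in adult LG and 139.3 to 1094 in embryonic LG. Of the 12572 genes that reached 1 FPKM at passage 10, 5082 (40.4%) had a day 7 mean at passage 2 under 0.1 of the passage 10 value, and 1108 were at 0 in all 20 libraries. Low values of Cdkn1a or of a D cyclin were therefore tested only among these 20 libraries and not set against other genes, and their values at passage 10 are given as a description.

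Promoter windows of the inhibitors that carry the comparisons with adult LG and the culture trend are given as 300 bases of RefSeq sequence, from 250 bases before to 50 after the transcript start (GRCm38.p6, strand of the gene). Capitals mark motifs searched on both strands, which were TTTCGCGC and TTTGGCGC for E2F, the TATA box TATAAA, the CCAAT box, the GC box GGGCGG, the AP-1 site TGANTCA, the E-box CACGTG, the cAMP response element TGACGTCA, the TCF site CTTTGAT and the p53 element by name (2 copies of a 10-base unit with no spacer and at most 1 position off). Cdkn2a has 2 windows, since its first exons give rise to different proteins, p19Arf from the upstream start and p16Ink4a from the downstream one, and a gene-level value cannot tell these apart. For Cdkn1a and Cdkn2c the first of 2 RefSeq windows is shown. The windows are Cdkn1a chr17:29090729-29091028 (plus strand), Cdkn2a chr4:89294570-89294869 and chr4:89282143-89282442, Cdkn2b chr4:89310983-89311282 and Cdkn2c chr4:109666707-109667006 (minus strand).
Cdkn1a: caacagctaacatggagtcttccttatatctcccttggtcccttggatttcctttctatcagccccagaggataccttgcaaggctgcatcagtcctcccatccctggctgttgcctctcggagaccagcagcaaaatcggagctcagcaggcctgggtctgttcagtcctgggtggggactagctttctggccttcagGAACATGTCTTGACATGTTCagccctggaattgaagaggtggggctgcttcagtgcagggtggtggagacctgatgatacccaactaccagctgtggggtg
Cdkn2a upstream start: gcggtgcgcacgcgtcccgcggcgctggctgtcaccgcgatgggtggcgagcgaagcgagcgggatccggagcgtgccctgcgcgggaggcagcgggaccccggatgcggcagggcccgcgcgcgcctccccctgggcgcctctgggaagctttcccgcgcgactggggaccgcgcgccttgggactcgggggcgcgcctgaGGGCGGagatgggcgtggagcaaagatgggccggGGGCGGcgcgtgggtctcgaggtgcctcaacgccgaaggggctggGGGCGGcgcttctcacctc
Cdkn2a downstream start: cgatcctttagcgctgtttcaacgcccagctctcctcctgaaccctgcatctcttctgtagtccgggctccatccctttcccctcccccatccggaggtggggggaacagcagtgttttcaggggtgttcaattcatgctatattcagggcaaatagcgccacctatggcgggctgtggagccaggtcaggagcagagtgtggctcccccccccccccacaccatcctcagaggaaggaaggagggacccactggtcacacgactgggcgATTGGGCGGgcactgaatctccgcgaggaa
Cdkn2b: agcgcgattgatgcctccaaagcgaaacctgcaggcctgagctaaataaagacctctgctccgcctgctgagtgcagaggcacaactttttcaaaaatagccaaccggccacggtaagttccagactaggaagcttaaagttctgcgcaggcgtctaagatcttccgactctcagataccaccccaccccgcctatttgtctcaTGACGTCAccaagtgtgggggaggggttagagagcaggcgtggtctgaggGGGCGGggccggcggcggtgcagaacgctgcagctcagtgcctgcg
Cdkn2c: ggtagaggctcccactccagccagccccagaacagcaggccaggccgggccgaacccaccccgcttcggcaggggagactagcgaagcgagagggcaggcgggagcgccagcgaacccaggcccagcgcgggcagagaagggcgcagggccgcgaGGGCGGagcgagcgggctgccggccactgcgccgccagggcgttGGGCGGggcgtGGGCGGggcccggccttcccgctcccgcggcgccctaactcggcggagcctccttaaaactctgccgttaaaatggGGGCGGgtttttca

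The Cdkn1a window shown held a p53 element, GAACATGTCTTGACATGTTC, which began 51 bases before the start, and 22 of 32544 promoter windows (0.0676%) held one. The other Cdkn1a window, at the downstream start (chr17:29093519-29093818), held no p53 element, and had GC boxes that began 104 and 46 bases before that start. The Cdkn2b window held the cAMP response element 46 bases before the start, as did 1.8% of all windows. The GC box occurred in 35.9% of all windows and in the Cdkn2a, Cdkn2b and Cdkn2c windows shown, where in the downstream Cdkn2a window it overlapped a CCAAT box (37.4% of all) on the other strand. None of the 5 windows shown held either E2F motif (0.326% and 0.519% of all windows), the TATA box (13.6%), the AP-1 site (7.79%), the E-box (7.17%) or the TCF site (3.73%). The Cdkn2c window that is not shown held an E-box 34 bases and a CCAAT box 7 bases after its start. These matches are descriptions of letters and were not tied to the values.

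Cdkn2a and Cdkn2b lie side by side on chromosome 4 (GENCODE M21, GRCm38: Cdkn2a 89274471 to 89294653 and Cdkn2b 89306299 to 89311039, both on the minus strand, 11646 bases apart). Cdkn2c lies on the same chromosome at 109660876 to 109667189, Cdkn1a on chromosome 17 at 29090976 to 29100727, Cdkn1b on chromosome 6 at 134920401 to 134925513, Trp53 on chromosome 11 at 69580359 to 69591873 and Mdm2 on chromosome 10 at 117688875 to 117710758. Ccnd1 lies on chromosome 7 at 144929931 to 144939925, Ccnd2 on chromosome 6 at 127125162 to 127152193 and Ccnd3 on chromosome 17 at 47505051 to 47599691. All values are sums over a gene's exons. The library preparation is not described as keeping strand, so reads of opposite-strand exons cannot be told apart, and 1100 bases (23.4%) of the Ccnd1 exons overlap LTO1, while overlaps with other genes cover 7.7% of the Cdkn1a exons, at most 4.0% of those of Ccnd2 and 4.1% of those of Ccnd3.

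**Figure D1:**
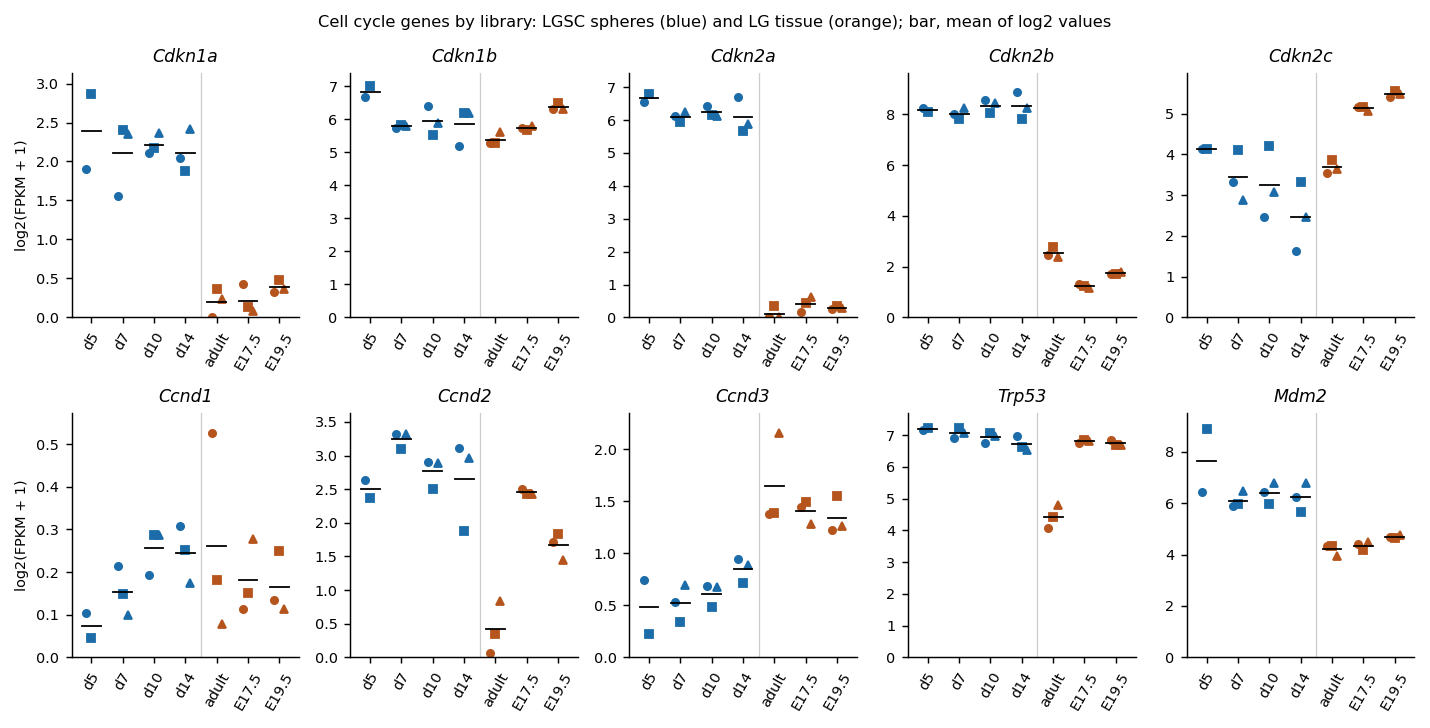
log2(FPKM + 1) of each gene (vertical axis, own range per gene) in the 2 to 3 libraries of each group (horizontal axis; d5 to d14, culture day of LGSC spheres in blue; tissue in orange; circle, square and triangle, replicates 1, 2 and 3; bar, mean of the log2 values). Cdkn1a, Cdkn2a, Cdkn2b and Mdm2 sat higher in all 11 sphere libraries than in all 9 tissue libraries, and Cdkn2c was highest in embryonic LG.

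No inhibitor of the 5, and no measurable D cyclin, passed the test for a rise with culture time. Of the 9 genes tested for a slope over days 5 to 14, 0 passed, where 334 of 15584 genes tested (2.14%) did, and 2965 (19%) had an unadjusted p under 0.05 (limma). Cdkn2c, Trp53 and Ccnd3 were the 3 with an unadjusted p under 0.05. The libraries were paired by their number across culture days (every same-numbered pair deviated together), and with that number as a block 783 genes (5.02%) passed, of which 453 (2.91% of those tested) fell, Cdkn2c among them. In bulk RNA, fewer cells of a type and less RNA per cell cannot be told apart.

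Over the same days genes of cell division fell. Of 11 tested genes of the proliferation list 7 fell (233 of all genes, 1.5%, fell), led by Cdc20 (-0.26 log2 per day), Plk1 (-0.26), both mitotic regulators, and Mcm5 (-0.22) and Mcm3 (-0.15) of the replicative helicase. Of 5 tested CDKs and later cyclins Ccnb1 (-0.25), Ccnb2 (-0.20) and Cdk1 (-0.12), the mitotic kinase and its cyclins, fell, while Cdk4, the partner of the D cyclins, had a slope of 0.05 (adjusted p = 0.274, limma) and Cdk2 of 0.00. The 7 proliferation calls numbered 0 without the first day 5 library or without the third day 14 library, 2 without the second day 5 library, 3 without the second day 7 or the third day 10 library and 4 without the first day 14 library, and 0 in days 7, 10 and 14 alone, where no gene of any kind was called. The slopes over those 3 days alone were -0.26 for Cdc20, -0.26 for Plk1, -0.225 for Mcm5 and -0.15 for Mcm3, about as steep as over all 4 days. The CDK and later cyclin calls numbered 0 without the first day 5 or the third day 14 library.

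**Figure D2:**
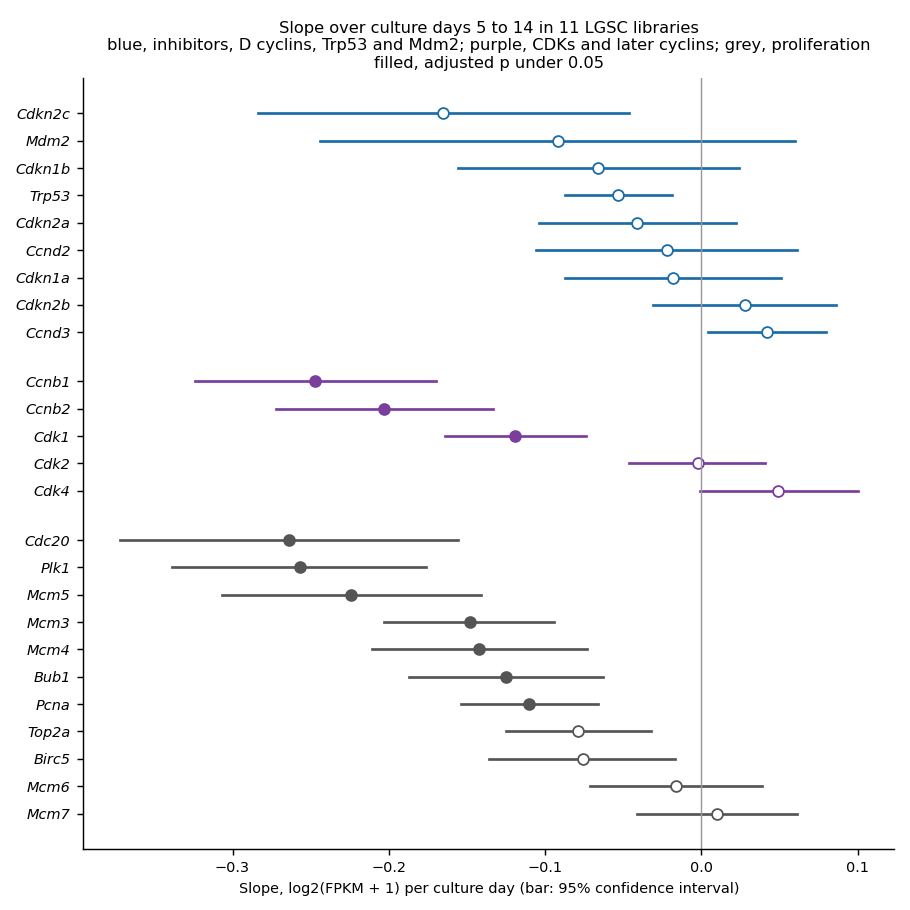
Slope of log2(FPKM + 1) per culture day (horizontal axis) with its 95% confidence interval for the 9 tested inhibitors, D cyclins, Trp53 and Mdm2 (blue), 5 CDKs and later cyclins (purple) and 11 proliferation genes (grey) in 11 LGSC libraries; filled circles had an adjusted p under 0.05. The 9 blue circles are all open, and 7 of 11 grey and 3 of 5 purple circles are filled, all to the left of 0.

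Cdkn2c, which encodes the INK4 inhibitor p18, had the steepest slope of the 5 inhibitors, and it was downward. Its levels were 16.6 and 16.5 FPKM (day 5), 9.01, 16.2 and 6.32 (day 7), 4.50, 17.3 and 7.45 (day 10), and 2.09, 8.91 and 4.53 (day 14). The second library was the highest on days 7, 10 and 14, and the ranges of neighbouring days overlapped from day 7 on. The slope was -0.17 log2 per day (SE 0.05, 95% confidence interval -0.28 to -0.05, adjusted p = 0.136, limma), and with the replicate block it was -0.16 (adjusted p = 0.0409, limma). Day 14 held 0.493 of the day 7 mean, a difference of -0.97 log2 (interval -2.17 to 0.24, adjusted p = 0.556, limma).

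Trp53, the source of p53, also had a negative slope, with less spread. It was at 141 and 150 FPKM (day 5), 120, 150 and 133 (day 7), 108, 132 and 124 (day 10), and 126, 96.7 and 91.1 (day 14). The day 14 mean of 105 FPKM was below the other day means, yet its first library lay inside the range of days 7 and 10. Its slope was -0.05 log2 per day (interval -0.09 to -0.02, adjusted p = 0.102, limma) and did not pass the threshold with the block either (adjusted p = 0.0989, limma).

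Ccnd3, the D cyclin of many differentiating lineages, had the upward slope nearest to a call. Its 3 day 7 libraries held 0.443, 0.262 and 0.624 FPKM and its 3 day 14 libraries 0.921, 0.640 and 0.850, so the ranges were apart, as they were for 1 of the 9 tested genes and for 17.4% of all 15744 genes tested between these days. Each value rested on 18 to 72 reads. Day 5 libraries stood at 0.670 and 0.168 FPKM and day 10 libraries at 0.605, 0.400 and 0.593. The slope was 0.04 log2 per day (interval 0.00 to 0.08, adjusted p = 0.219, limma).

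Ccnd2, the cyclin D2 gene, had its highest mean at day 7. It stood at 5.22 and 4.17 FPKM (day 5), 9.03, 7.52 and 8.996 (day 7), 6.45, 4.66 and 6.44 (day 10), and 7.61, 2.69 and 6.83 (day 14). All 3 day 7 libraries lay above every day 5 and day 10 library, while the first day 14 library reached the day 7 range. Its slope was -0.02 log2 per day (interval -0.11 to 0.06), and day 14 minus day 7 was -0.59 log2 (adjusted p = 0.587, limma).

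Ccnd1, the cyclin D1 gene and a classic target of growth factor and Wnt signals, could not be followed. It had 1 to 10 recovered reads in each sphere library and 2 to 8 in each tissue library (0.031 to 0.238 FPKM in spheres and 0.056 to 0.440 in tissue), which put it under the filter of every comparison. The groups overlapped, and a difference was not detectable with so few reads. In the passage 10 library Ccnd1 had 17890 reads, and what sets its low values in the 20 libraries was not tested.

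The neighbouring genes Cdkn2a and Cdkn2b stayed at high values in spheres of every age. Cdkn2b, which encodes p15 and is known as a target of TGF-beta signals, held 305 and 275 FPKM (day 5), 261, 222 and 302 (day 7), 373, 265 and 345 (day 10), and 465, 227 and 306 (day 14). Its mean was highest at day 14 (333 ± 121 FPKM, SD, n = 3), but the spread of that day spanned the other days, and the slope was 0.03 log2 per day (interval -0.03 to 0.09, adjusted p = 0.610, limma).

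Cdkn2a was at 92.0 and 110 FPKM (day 5), 69.4, 60.4 and 74.2 (day 7), 84.4, 69.9 and 68.8 (day 10), and 103, 49.3 and 58.4 (day 14). The day 5 libraries lay above all of days 7 and 10, and the first day 14 library lay between them. The slope was -0.04 log2 per day (interval -0.10 to 0.02, adjusted p = 0.464, limma), and the day 14 mean was 1.03 of the day 7 mean.

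Cdkn1b, the p27 gene, whose protein level is set largely by degradation, was highest at day 5 with 101 and 129 FPKM. Later libraries held 52.6, 55.6 and 55.3 FPKM (day 7), 84.6, 45.4 and 58.6 (day 10), and 35.4, 72.7 and 71.6 (day 14). Days 7, 10 and 14 overlapped, and the slope of -0.07 log2 per day (interval -0.16 to 0.02, adjusted p = 0.403, limma) turned to 0.01 over those 3 days alone. Of 4 tested genes of a list on protein degradation (Cks1b, Cul1, Dtl and Usp7) 0 were called for the slope. Cks1b came nearest (-0.107 log2 per day, adjusted p = 0.0554, limma).

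Cdkn1a, the p21 gene, stood at 2.75 and 6.30 FPKM (day 5), 1.94, 4.31 and 4.12 (day 7), 3.31, 3.51 and 4.16 (day 10), and 3.13, 2.68 and 4.33 (day 14). Every day overlapped every other, and the 4 day means lay between 3.38 and 4.53 FPKM. The slope was -0.02 log2 per day (interval -0.09 to 0.05, adjusted p = 0.799, limma). It was 0.01 without the second day 5 library, and the interval leaves room for a change in either direction.

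Mdm2 had a single library far from the rest. It was at 85.1 and 474 FPKM (day 5), 58.7, 61.0 and 86.8 (day 7), 85.8, 60.9 and 111 (day 10), and 74.9, 50.01 and 111 (day 14). The second day 5 library, with 16324 recovered reads, was 5.56 times the first, while the other 10 sphere libraries lay between 50.01 and 111 FPKM. The slope of -0.09 log2 per day (adjusted p = 0.5, limma) became 0.00 without that library.

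That library was also the highest of the 11 for some other genes of the set and some p53 targets. Of 9 tested genes of the set 5 (Cdkn1a, Cdkn1b, Cdkn2a, Trp53 and Mdm2) were highest there, and so were 7 of 15 tested p53 targets, against 19.4% of all genes tested. Mdm2 is the gene that drew attention to the library. Some leads were narrow, as Trp53 with 149.6 FPKM against 149.5 and Sesn1 with 4.258 against 4.207 in the next library. Sesn2, a stress-induced sestrin, had 122 FPKM against 56.5 in the other day 5 library, Bax, the cell death effector, 419 against 321, and Zmat3, an RNA-binding protein, 48.6 against 34.8. Others ran the other way, as Gadd45a with 0.752 against 2.07 FPKM. The FPKM sum of this library, 444294, was above those of the other sphere libraries (305206 to 401569), and its part in these values was not tested. With 2 libraries at day 5 no test can place this difference, and no label sets the library apart.

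Of 15 tested p53 targets 0 passed for the slope, and with the block Ei24 fell (-0.08 log2 per day) and Gadd45a, a growth arrest gene, rose (0.12), where 5.02% of all genes were called with the block. Among 9 tested Rb and E2F genes 0 passed, and with the block Rbl1 (-0.11), a retinoblastoma relative, and E2f2 (-0.17) fell, where 2.91% of all genes did. These 4, and the targets named above for the second day 5 library, were chosen after their values were seen. Of 10 tested growth factor and Wnt response genes 0 passed, and of the other inhibitors Cdkn1c and Cdkn2d 1 was tested and did not pass.

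Between day 14 and day 7 no gene of the set passed, and none of 15744 genes tested did (0%; smallest adjusted p = 0.335, 1557 genes or 9.89% with an unadjusted p under 0.05, limma). The 95% intervals for the 9 tested genes all crossed 0. With the block, 0 genes passed as well, and limma-voom on recovered reads gave 0 without the block and 116 with it, none from the set. The intervals allow a change of -0.69 to 0.70 log2 for Cdkn1a, -0.71 to 0.67 for Cdkn2a and -0.38 to 0.97 for Cdkn2b.

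Spheres and adult gland differed far more than culture days did. In day 7 spheres 6 of 9 tested genes were higher than in adult LG (16.5% of all 17663 genes tested were) and Ccnd3 was lower (23.2% were). The same 6 were higher at day 14 (15.2%) and Ccnd3 was lower (21.2%). Cdkn1a, Cdkn2a and Ccnd2 had adult means under 0.5 FPKM and passed the filter only through the spheres, where they were high, so these 3 could enter only as higher, and their place in the counts supports nothing. Both comparisons use the same 3 adult libraries, so they are not independent. Stromal and leukocyte markers, which are in the tissue and near 0 in spheres, moved with this comparison, and so did the adult scale given above; their part in it was not tested.

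Cdkn2a was close to absent from the reads of adult LG. The 3 adult libraries held 0, 1 and 0 recovered reads, against 554 to 779 in day 7 and 514 to 1078 in day 14 spheres. Over the group this made 2086 reads against 1 and a ratio per scale of 1058 (exact 95% interval 190 to 41825, counting error only). On the log2 scale the difference was 5.99 at day 7 (SE 0.28, adjusted p = 2.36e-06, limma) and 5.97 at day 14 (adjusted p = 2.52e-06, limma). The filter let Cdkn2a in only through the spheres, so it could be called only as higher. These p-values lend the direction no support. Embryonic LG held 1 to 5 reads per library (0.110 to 0.533 FPKM), in the range of the adult libraries or just above it.

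Cdkn2b was low but measurable in adult LG, at 4.46, 5.89 and 4.24 FPKM. Day 7 spheres held 53.8 times and day 14 spheres 68.5 times the adult mean, with differences of 5.48 (SE 0.28, adjusted p = 3.65e-06, limma) and 5.78 log2 (adjusted p = 2.77e-06, limma). No sphere library was under 222 FPKM and no tissue library over 5.89, so the groups were far apart.

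Cdkn1a followed with 0, 2 and 3 recovered reads in adult LG and 40 to 82 in day 7 spheres, a ratio of 20.0 per scale (exact 95% interval 8.42 to 62.3, counting error only). The difference was 1.91 log2 at both day 7 (adjusted p = 0.000734, limma) and day 14 (adjusted p = 0.000842, limma). Having passed the filter only through the spheres, Cdkn1a could be called only as higher, and these p-values lend the direction no support. Its values were made over 2223 bases of exon, where GENCODE M21 gives 3553, which sets its level but not its ratios.

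Trp53 was at 15.8, 20.4 and 26.8 FPKM in adult LG and was 6.40 times that mean at day 7 (2.65 log2, adjusted p = 6.37e-05, limma) and 4.98 times at day 14 (2.28 log2, adjusted p = 0.000151, limma). Mdm2 was at 19.2, 19.0 and 14.5 FPKM in adult LG and at 3.91 times that mean at day 7 (1.90 log2, adjusted p = 0.00146, limma) and 4.46 times at day 14 (2.03 log2, adjusted p = 0.00119, limma). All sphere libraries lay above all adult libraries for both genes.

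Among the D cyclins, Ccnd2 had 1, 8 and 57 reads in the adult libraries (0.044, 0.268 and 0.794 FPKM), and was 2.83 log2 higher at day 7 (adjusted p = 0.000337, limma) and 2.24 at day 14 (adjusted p = 0.00137, limma). As Ccnd2 passed the filter only through the spheres, these p-values lend that direction no support. Ccnd3 went the other way, with 1.61, 1.62 and 3.47 FPKM in adult LG and a difference of -1.12 at day 7 (adjusted p = 0.00636, limma) and -0.80 at day 14 (adjusted p = 0.0304, limma), and with equal FPKM sums both calls were lost, at -0.14 at day 7 (adjusted p = 0.819, limma) and 0.448 at day 14 (adjusted p = 0.445, limma), or -1.28 and -0.77 relative to the median of all genes. The day 14 call of Ccnd3 was lost without any of the 3 day 14 libraries (adjusted p = 0.0592, 0.0858 and 0.0723, limma).

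Cdkn1b and Cdkn2c did not pass against adult LG on the deposited scale. Cdkn1b was at 38.0, 37.8 and 47.7 FPKM in adult LG, and the difference was 0.41 at day 7 (interval -0.23 to 1.044) and 0.47 at day 14 (interval -0.17 to 1.11). It passed at day 14 without the first day 14 library (0.80, adjusted p = 0.0185, limma). With equal FPKM sums it passed at day 7 (2.66, adjusted p = 0.00463, limma) and day 14 (2.77, adjusted p = 0.00377, limma), or 1.53 and 1.55 relative to the median of all genes. Cdkn2c was at 10.6, 13.5 and 11.4 FPKM in adult LG, against which the day 7 difference was -0.25 (interval -1.25 to 0.76) and the day 14 difference -1.21 (interval -2.22 to -0.20, adjusted p = 0.061, limma). It passed at day 14 without the second day 14 library (-1.63, adjusted p = 0.0183, limma). With equal FPKM sums the signs turned, to 1.86 at day 7 (adjusted p = 0.0297, limma) and 0.83 at day 14 (adjusted p = 0.265, limma), or 0.73 and -0.39 relative to the median of all genes.

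Targets of p53 were mostly higher in spheres too. Of 16 tested, 11 were higher than in adult LG at day 7, beside 16.5% of all genes, and 11 at day 14, beside 15.2%. At each day 1 was lower, beside 23.2% and 21.2% of all genes. The higher genes were led by Pmaip1 (3.94 log2 at day 7), which encodes the death factor Noxa, the receptor gene Eda2r (3.40), Zmat3 (2.83) and Ccng1 (2.62), the cyclin G1 gene. Phlda3, at 0.152 FPKM in adult LG, passed the filter only through the spheres and could enter only as higher. The median over the list was 1.20 at day 7 and 1.25 at day 14, against -0.03 and -0.02 over all genes. At day 14 the 12 calls numbered 7 without the third day 14 library and 8 without the first day 14 or the first adult library.

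Proliferation genes stood high in the same spheres. All 10 that passed the filter were higher than in adult LG at day 7, beside 16.5% of all genes. At day 14 8 of them were, beside 15.2% of all genes. Plk1 stood at 3.89 and then 2.11 log2 and Cdc20 at 3.497 and then 1.68. Spheres high in Cdkn2a and Cdkn2b were thus high in mitotic transcripts too. Of 9 tested Rb and E2F genes, 3 were higher at day 7 (E2f8, E2f3 and Rbl1) and 2 lower, beside 16.5% and 23.2% of all genes, and these 5 calls numbered 3 without the first day 7 library. E2f8, at 0.452 FPKM in adult LG, passed the filter only through the spheres and could enter only as higher. Of 12 tested growth factor and Wnt response genes, 4 were higher and 4 lower at day 7, beside the same shares of all genes, with the AP-1 gene Fosl1 at 3.63 and the immediate early gene Egr1 at -3.88. These 8 calls numbered 5 without the first or the third day 7 library or the second adult library. Spry4, among the lower ones, had 0.149 FPKM in day 7 spheres, 0.245 in day 14 spheres and 3.80 in adult LG. It passed the filter only through adult LG and could enter only as lower.

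**Figure D3:**
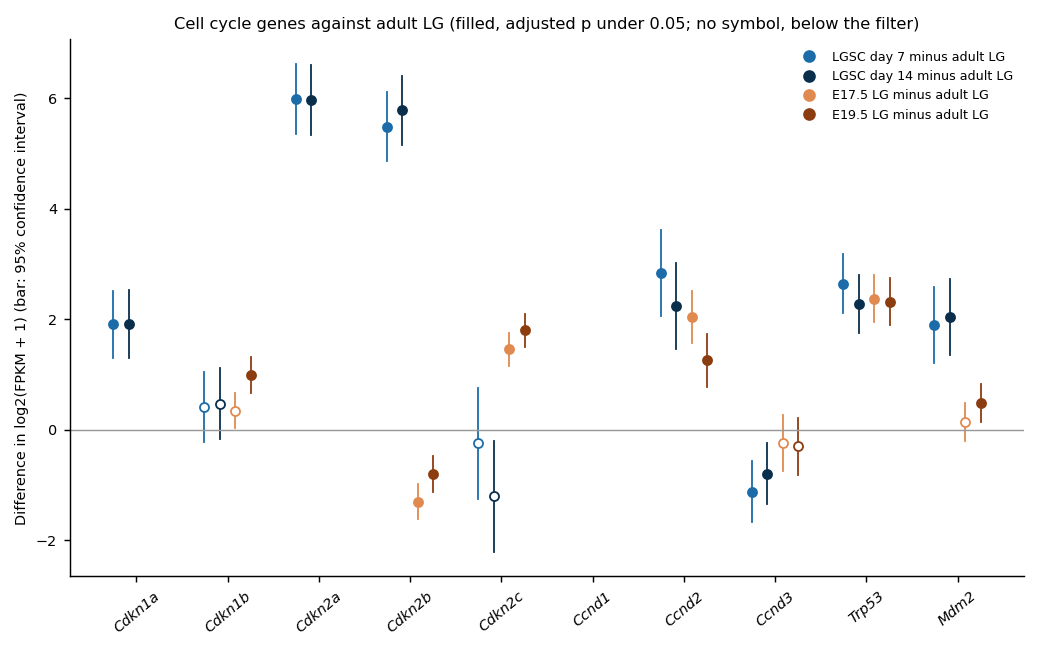
Difference in log2(FPKM + 1) from adult LG (vertical axis) with its 95% confidence interval for each gene in day 7 and day 14 spheres (light and dark blue) and in E17.5 and E19.5 LG (light and dark orange); filled circles had an adjusted p under 0.05 and genes under the filter have no symbol. Cdkn2a and Cdkn2b stand near 6 in spheres, Cdkn2b is below 0 in embryonic LG (above 0 with equal FPKM sums), and Trp53 and Ccnd2 are above 0 in all 4. Where shown, Cdkn1a, Cdkn2a and Ccnd2 passed the filter only through the groups where they were high, so they could stand only above 0.

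In embryonic LG, Trp53 and Cdkn2c were higher than in adult LG, Trp53 as in spheres, and Ccnd2 stood higher by value. Of 7 tested genes 3 were higher at E17.5 than in adult LG (29.1% of all 18578 genes tested were) and 1, Cdkn2b, lower (24.9% were), and at E19.5 5 were higher (30.3%) and Cdkn2b lower (23.9%), a direction that turned with equal FPKM sums. Ccnd2 had an adult mean of 0.369 FPKM and passed the filter only through the embryonic libraries. It could therefore enter only as higher, and its place in the counts supports nothing. Cdkn1a, Cdkn2a and Ccnd1 were under the filter. All 6 tested mesenchymal markers were higher at both stages and the 3 tested leukocyte markers were lower at E17.5, and their part in these differences was not tested. Both comparisons share the adult libraries, and the 9 tissue libraries shared 1 fit.

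Cdkn2c was the inhibitor that stood out. It held 34.7, 34.9 and 32.4 FPKM at E17.5 and 41.7, 46.2 and 43.2 at E19.5, above every adult and every sphere library. Against adult LG this was 1.45 log2 at E17.5 (SE 0.13, adjusted p = 3.67e-05, limma) and 1.803 at E19.5 (adjusted p = 1.4e-05, limma). All 11 tested proliferation genes were also higher at both stages, beside 29.1% of all genes at E17.5 and 30.3% at E19.5. Their list median was 2.51 and 2.75 log2, against 0.05 and 0.09 over all genes.

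Trp53 was at 107, 114 and 111 FPKM at E17.5 and 115, 101 and 102 at E19.5, 2.37 (adjusted p = 1.82e-05, limma) and 2.31 log2 (adjusted p = 2.39e-05, limma) above adult LG. Embryonic values lay within the range of the sphere libraries, 91.1 to 150 FPKM. Mdm2 in turn was at 20.0, 17.1 and 21.2 FPKM at E17.5 (0.14, adjusted p = 0.459, limma) and 24.4, 24.1 and 26.1 at E19.5 (0.49, adjusted p = 0.0255, limma). The E19.5 call was lost without any of the 3 E19.5 libraries (adjusted p = 0.0597, 0.0629 and 0.0805, limma). With equal FPKM sums Mdm2 passed at E17.5 (2.27, adjusted p = 0.000997, limma) and E19.5 (2.401, adjusted p = 0.000899, limma), or 1.043 and 1.34 relative to the median of all genes. Among 14 tested p53 targets, 2 rose and 3 fell at E17.5 against adult LG (29.1% and 24.9% of all genes), while 5 rose and 2 fell at E19.5 (30.3% and 23.9%), which is no result about p53 targets. Those 5 and 7 calls became 9 at each stage without the third adult library, 3 at E17.5 without any of its own libraries, and 4 at E19.5 without its second library or without the third.

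Ccnd2 was at 4.69, 4.36 and 4.40 FPKM at E17.5 and 2.29, 2.58 and 1.73 at E19.5, above the adult libraries by 2.04 (adjusted p = 7.18e-05, limma) and 1.25 log2 (adjusted p = 0.00115, limma). As Ccnd2 passed the filter only through the embryonic libraries, these p-values lend that direction no support. Ccnd3 was at 1.71, 1.81 and 1.42 FPKM at E17.5 and 1.33, 1.93 and 1.39 at E19.5, inside or near the adult range (-0.24, interval -0.75 to 0.27, and -0.30, interval -0.81 to 0.21). Cdkn2b was lower than in adult LG, at 1.48, 1.34 and 1.26 FPKM at E17.5 (-1.30, adjusted p = 0.000102, limma) and 2.30, 2.24 and 2.47 at E19.5 (-0.80, adjusted p = 0.00158, limma). With equal FPKM sums the Cdkn2b difference turned to 0.27 at E17.5 and 0.73 at E19.5, which is -0.95 and -0.33 relative to the median of all genes.

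Cdkn1b was at 52.0, 50.1 and 54.6 FPKM at E17.5 and 78.4, 89.3 and 79.3 at E19.5. Against adult LG the difference was 0.34 at E17.5 (adjusted p = 0.0666, limma) and 0.99 at E19.5 (adjusted p = 0.000492, limma), and without the third adult library the first passed as well (0.45, adjusted p = 0.00263, limma), as it did with equal FPKM sums (2.53, adjusted p = 0.00274, limma). Its relative Cdkn1c, the imprinted p57 gene, was higher at both stages (1.48 and 0.77 log2), and its E19.5 call was lost without the third E19.5 library (adjusted p = 0.0554, limma). Cdkn1c, at 0.043 FPKM in adult LG, passed the filter only through the embryonic libraries. It could therefore enter only as higher, and its calls support nothing.

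Between E17.5 and E19.5, as the gland neared birth, 0 of 7 tested genes passed, and 323 of 18578 genes (1.74%) did. At an unadjusted p under 0.05, 4 of the 7 and 15.3% of all genes stood. Cdkn1b was 1.58 times higher at E19.5 (0.65 log2, adjusted p = 0.0655, limma), Cdkn2b 1.72 times higher (0.50, adjusted p = 0.133, limma), Cdkn2c 1.28 times higher (0.35, adjusted p = 0.241, limma) and Ccnd2 at 0.491 of its E17.5 mean (-0.79, adjusted p = 0.112, limma). For these 4 and Mdm2 the ranges of the stages were apart, as for 35.1% of all genes. Without the third adult library, which enters the shared spread, Cdkn1b (adjusted p = 0.00597, limma), Cdkn2b (adjusted p = 0.0397, limma) and Ccnd2 (adjusted p = 0.017, limma) passed and 1736 genes were called. Of 11 tested proliferation genes 0 passed.

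Ordered over the 7 groups by mean, Cdkn2a and Cdkn1a ran from the 4 sphere groups down to the 3 tissues, and neighbours within the tissues overlapped. Cdkn2b had the same break, with adult LG above E19.5 and E19.5 above E17.5, each apart from the next. Cdkn2c ran E19.5, E17.5, day 5, adult, day 7, day 10, day 14, and from adult LG on each overlapped the next. For Trp53 the groups from day 5 to day 14, embryonic LG included, overlapped their neighbours, and adult LG was apart below them. Ccnd2 was highest at day 7 and lowest in adult LG, with E17.5 next to day 5, and Ccnd3 ran from adult LG to day 5, with the tissue groups overlapping each other and apart from spheres. Cdkn1b placed day 5 first and E19.5 next, apart from each other, and adult LG last, apart from E17.5. For Mdm2 the sphere groups overlapped each other and lay apart above E19.5, which lay apart above E17.5, and E17.5 overlapped adult LG.

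Genes with the most similar pattern were ranked by Pearson correlation of log2(FPKM + 1) over 20 libraries among 10660 genes, as a description; libraries of spheres and of tissue form separate clusters, so r is also given within each. Cdkn2c came with Spc25 (r = 0.970; 0.960 over 11 sphere and 0.944 over 9 tissue libraries) and Vrk1 (0.959; 0.958 and 0.978). Trp53 came with Fscn1 (0.985; 0.582 and 0.996) and Eno1 (0.985; 0.756 and 0.993). Cdkn2b came with its neighbour Cdkn2a (0.987), which was 0.596 within spheres and -0.563 within tissue, and with Krt17 (0.986; 0.037 and 0.760). Cdkn2a itself came with Galnt6 (0.989; 0.429 and 0.299) and D1Ertd622e (0.989; 0.812 and 0.096), so for Cdkn2a and Cdkn2b the likeness was mostly that of spheres against tissue. Mdm2 came with Atg14 (0.939; 0.952 and 0.386) and Arl8a (0.938; 0.928 and 0.615), Cdkn1b with 2610044O15Rik8 (0.845; 0.818 and 0.904) and Cyp2j9 (0.817; 0.784 and 0.957), and Cdkn1a with Stx11 (0.972; 0.525 and 0.645) and Mxi1 (0.972; 0.720 and 0.294). Ccnd2 came with Gpc4 (0.959; 0.704 and 0.972) and Rtn4 (0.954; 0.626 and 0.973), and Ccnd3 with Fzd4 (0.954; 0.768 and 0.867) and Dtx1 (0.942; 0.620 and 0.824).

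In the passage 10 library, which had 25172949 recovered reads, Cdkn2a and Cdkn2b transcripts were again present. Cdkn2a stood at 98.3 FPKM, against 60.4 to 74.2 at day 7 of passage 2, and Cdkn2b at 59.1, against 222 to 302. Trp53 was at 53.1 FPKM (120 to 150 at passage 2), Cdkn1b at 24.4 (52.6 to 55.6), Cdkn2c at 4.99 (6.32 to 16.2) and Mdm2 at 82.9 (58.7 to 86.8). Only Mdm2 fell inside the passage 2 day 7 range. The genes that were low at passage 2 were high here, with Cdkn1a at 159 FPKM, Ccnd1 at 160, Ccnd2 at 67.5 and Ccnd3 at 5.98, or 45.8, 1408, 7.92 and 13.5 times the day 7 mean. Lower ratios of day 7 to passage 10 were held by 25.2%, 11.9%, 42.9% and 37.6% of all genes. Over all 12572 genes the median ratio of day 7 to passage 10 was 0.278, and Krt14, the basal keratin, was at 7065 FPKM against 6.51 to 17.8, while Actb, the actin gene, was at 479 against 476 to 570. Passage and the gene list behind the values cannot be told apart, and 1 library gives no test.

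**Figure D4:**
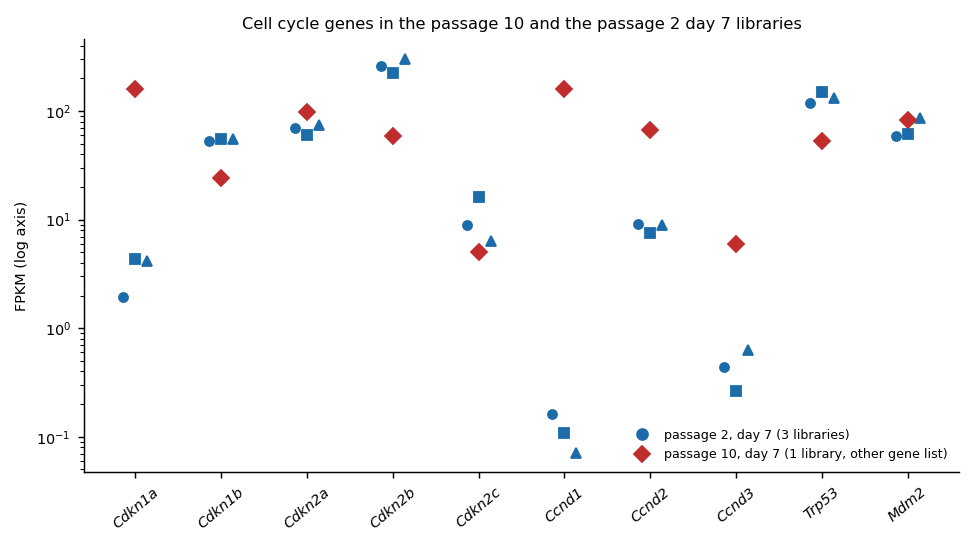
FPKM on a log axis of each gene (horizontal axis) in the 3 day 7 libraries of passage 2 (blue circle, square and triangle, replicates 1, 2 and 3) and in the passage 10 library (red diamond), which was made against another gene list. Ccnd1, Cdkn1a, Ccnd2 and Ccnd3 show diamonds far above the passage 2 points, and the other 6 genes lie within 4.42 times of the passage 2 mean in either direction.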

How the data were processed

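RNA of 21 mouse libraries was analysed; replicate 3 of day 5 and spheres of passages 6 and 20 were not analysed here. Per the labels, mRNA was taken with poly-T beads and libraries made with the NEBNext Ultra kit. The authors deposited FPKM per gene, 1 file a library; the submitters' processing notes name CASAVA 1.8, HISAT2 2.0.5, featureCounts 1.5.0-p3 and build NCBIM37, and the step to FPKM is not given in the sources used here. The 20 libraries share 63862 features, of which 52403 are in GENCODE M21 (GRCm38), whose symbols and positions were used.

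Each fit took the genes whose mean over its libraries reached 0.5 FPKM and tested them on log2(FPKM + 1) with limma 3.58.1 (R 4.3.3; empirical Bayes with trend, two-sided), Benjamini-Hochberg over all genes tested, threshold 0.05. The fits were the slope over 11 sphere libraries, day 14 against day 7, the 9 tissue libraries, and days 7 and 14 with adult LG. Values fell on steps of whole reads, from which depth was recovered with GENCODE M21 exon lengths: 92.6% to 93.6% of genes came within 0.01 of a whole number up to 1000 reads in the 20 libraries. Intervals on reads are exact and cover counting error only. Methods were tested on simulated data with independent noise in each library, so the pairing of sphere libraries was not simulated. Of genes changed by 2 log2, 71% to 80.5% were recovered. False calls made up 5.96% to 8.92% of calls, above the threshold of 0.05.

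Same-numbered sphere libraries of different days deviated together (15 of 15 pairs over 0.1, mean r = 0.457), so the number was treated as a pairing there; 9 of 9 tissue pairs were at or under 0.1, and 3 of 9 pairs over spheres and adult LG were over it. The genes of interest and the lists were chosen with earlier results of these data known. In each comparison, up to 4 genes of a list with the largest change past the threshold were named, and the 2 genes most alike each gene of interest. Alternatives were the pseudocount 0.1, no filter, scaling to equal FPKM sums, the replicate block, each library left out, other sets of days, and, chosen after seeing the data, limma-voom on recovered reads.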

Additional observations from a re-analysis of the deposited data

Results flagged for a closer look

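The passage 10 library lies outside the comparisons of the report, and 4 of the 10 genes stood above every one of the 11 passage 2 sphere libraries there, where 55% of the 12572 genes that reached 1 FPKM did, so the count is no more than that of all genes. Cdkn1a was at 158.6 FPKM, Ccnd1 at 159.8, Ccnd2 at 67.45 and Ccnd3 at 5.976. It is 1 library made against another gene list, so passage and list cannot be told apart, and the difference was not tested.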

How the results depend on the processing

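Of 882 repeats of a test on one of the genes under another setting, 833 kept direction and side of the threshold, 10 lost a call, 14 gained one and 25 changed sign. With the pairing by replicate block, 1 gene of the 9 (Cdkn2c) passed for the slope where 0 had, and 1 also with limma-voom and the block (adjusted p = 0.0245, limma). In sets without pairing the block moved Cdkn2c at day 14 against adult LG to an adjusted p of 0.0261 and Mdm2 at E19.5 to 0.0583 (limma), and in the paired fits it changed no other call on these genes. Over days 7, 10 and 14 alone the slopes of Cdkn1b (0.007) and Mdm2 (0.016) changed sign.

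With equal FPKM sums, sign changes were Cdkn1a for the slope (0.003), Cdkn2a for day 14 minus day 7 (0.023), Cdkn2b (0.274), Ccnd3 (1.164), Perp (1.298) and Rrm2b (1.275) at E17.5, Cdkn2b (0.732), Ccnd3 (0.902), Sesn2 (1.061) and Usp7 (0.396) at E19.5, Cdkn2c (1.865) and E2f2 (0.925) at day 7, and Cdkn2c (0.830), Ccnd3 (0.448), E2f2 (0.150) and Rbl2 (1.417) at day 14, all against adult LG. It also gave calls to Cdkn1b at E17.5 (2.532), day 7 (2.664) and day 14 (2.771) and to Mdm2 at E17.5 (2.272), and took that of Ccnd3 at day 7 (-0.142). The scaling itself moved the median of all genes by over 1 in these.

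With 1 library left out, slopes ranged from -0.035 to 0.011 (Cdkn1a), -0.049 to 0.021 (Ccnd2) and -0.130 to 0.003 (Mdm2). Day 14 minus day 7 ranged from -0.270 to 0.157 (Cdkn1a), -0.111 to 0.399 (Cdkn1b), -0.331 to 0.194 (Cdkn2a) and -0.144 to 0.419 (Mdm2). Ccnd3 ranged from -0.371 to 0.018 (E17.5 minus adult) and -0.163 to 0.002 (E19.5 minus E17.5), and Cdkn2c from -0.581 to 0.035 (day 7 minus adult). Between E17.5 and E19.5, 0 to 3 of the genes passed. The cause was not tested.

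Counts over all genes moved more. The 334 slope calls became 82 with no filter, 185 with equal sums, 1184 with limma-voom and the block, 0 over days 7, 10 and 14, and 11 to 384 with 1 library left out (11 without the first day 5 library, 37 without the third day 14 library). Day 14 against day 7 gave 23 with all days and the block in the fit. The 323 calls between embryonic stages became 162 with pseudocount 0.1, 100 with the block, 172 with equal sums and 50 to 1736 with 1 library left out. With equal sums, calls against adult LG were 15753 at E17.5, 13123 at day 7 and 13749 at day 14. Genes with few reads, as Ccnd1 in all libraries and Cdkn2a and Cdkn1a in tissue, limit what depth can show.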
